A study of Homo sapiens with 9 samples.

Results

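The genes described here are 9 genes of inositol trisphosphate (IP3) and inositol lipid signalling. They are PLCB4, the receptors ITPR1, ITPR2 and ITPR3, the phosphatases INPP5A, INPP1, INPP4A and INPP4B, and the kinase ITPKB. They were picked by gene symbol from the probe annotation, with results of the group comparisons on these same arrays already known, and all of their probe sets were kept. A probe set is a group of short array probes read as 1 value. The 9 genes had 20 probe sets of the 22215 tested, and 0 of these were annotated to a further gene. Because the comparisons were known when the genes were chosen, every call on the 9 genes below is a description of these arrays and is not independent support for anything.

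Cells of U251 (U251MG), an established line from a human glioma, were plated in triplicate wells for each condition and read on 9 arrays. The first group received Oligofectamine, a lipid transfection reagent, and an siRNA to WT1, which encodes a transcription factor with zinc fingers. The second received Oligofectamine with a non-targeting siRNA, called scrambled, and the third received Oligofectamine alone (reagent). Each siRNA was given at 100 nM. All 3 groups share the cell line, the medium and the reagent, and the replicate numbers 1 to 3 recur in each group. The labels do not say whether the numbers stand for separate days, so p-values measure only the spread between these cultures, which may be technical.

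Receptors coupled to Gq proteins activate phospholipase C, which splits the membrane lipid PIP2 into diacylglycerol and IP3. IP3 opens channels in the membrane of the endoplasmic reticulum, and calcium flows from this store into the cytosol. The signal ends when phosphatases and kinases convert IP3, and the products are taken back to free inositol, from which the lipid is rebuilt.

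Values are log2 expression, normalised between arrays, and differences are on the log2 scale. Each comparison was made within replicate numbers, in 1 limma fit of all 9 arrays with the number as a block (n = 3 per group), with its standard error (SE). A probe set was called at an adjusted p under 0.05 over all 22215 probe sets. WT1 at probe set 206067_s_at read 4.76, 5.09 and 4.82 with the WT1 siRNA, 5.59, 5.89 and 5.41 with the scrambled siRNA and 6.05, 6.58 and 5.89 with reagent. Its fitted level with the WT1 siRNA was 60.0% of scrambled and 41.0% of reagent, and the scrambled group itself had 68.4% of reagent. Without the block these WT1 differences were not called (adjusted p = 0.672 against scrambled and 0.394 against reagent). The other WT1 probe set, 216953_s_at, had no call. It differed by −0.18 from scrambled (adjusted p = 0.42) and by −0.15 from reagent (adjusted p = 0.516). It was below the scrambled array in 2 of 3 numbers. By rank on each array, 206067_s_at lay between percentiles 18.4 and 51.7 and 216953_s_at between 20.9 and 31.1. Such dim levels limit what these WT1 values can show. Of the glioma and astrocyte markers, 7 of 8 lay at or above the median of all probe sets, among them VIM, CD44 and NES, and S100B lay low, brighter than 20.4% of probe sets. For microglia, endothelium and epithelium 1, 1 and 2 of 5 measured markers each reached that median.

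With the WT1 siRNA, INPP5A and ITPR1 were lower than with the scrambled siRNA, and INPP5A was also lower than with reagent. INPP5A had 38.0% of its level with the scrambled siRNA and 49.6% of its level with reagent. All 3 probe sets of ITPR1 fell against the scrambled siRNA, to between 66.1% and 71.0%, and none of them passed against reagent. The other 7 genes, with 16 probe sets, had no call in any of the 3 comparisons. In bulk cultures fewer cells expressing a gene and less RNA per cell cannot be told apart.

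Against the scrambled siRNA, 4 of the 20 probe sets were called, all lower, where 3.27% of all probe sets were called (1.33% higher and 1.94% lower). Against reagent 1 was called, lower, where the share over all probe sets was 1.25% (0.410% higher and 0.837% lower). Between the scrambled siRNA and reagent 2 were called, both higher, where the share was 1.09% (0.554% higher and 0.536% lower). The median difference of the 20 was −0.07, −0.03 and 0.10 in these comparisons, against 0.00, 0.01 and 0.01 over all probe sets. The comparisons share their groups, so that a high scrambled value lowers the first and raises the third. Without the replicate block only INPP5A against the scrambled siRNA was called, and the counts were 1, 0 and 0 (4, 0 and 1 over all probe sets, with 825, 616 and 483 at an unadjusted p under 0.05).

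**Figure D1:**
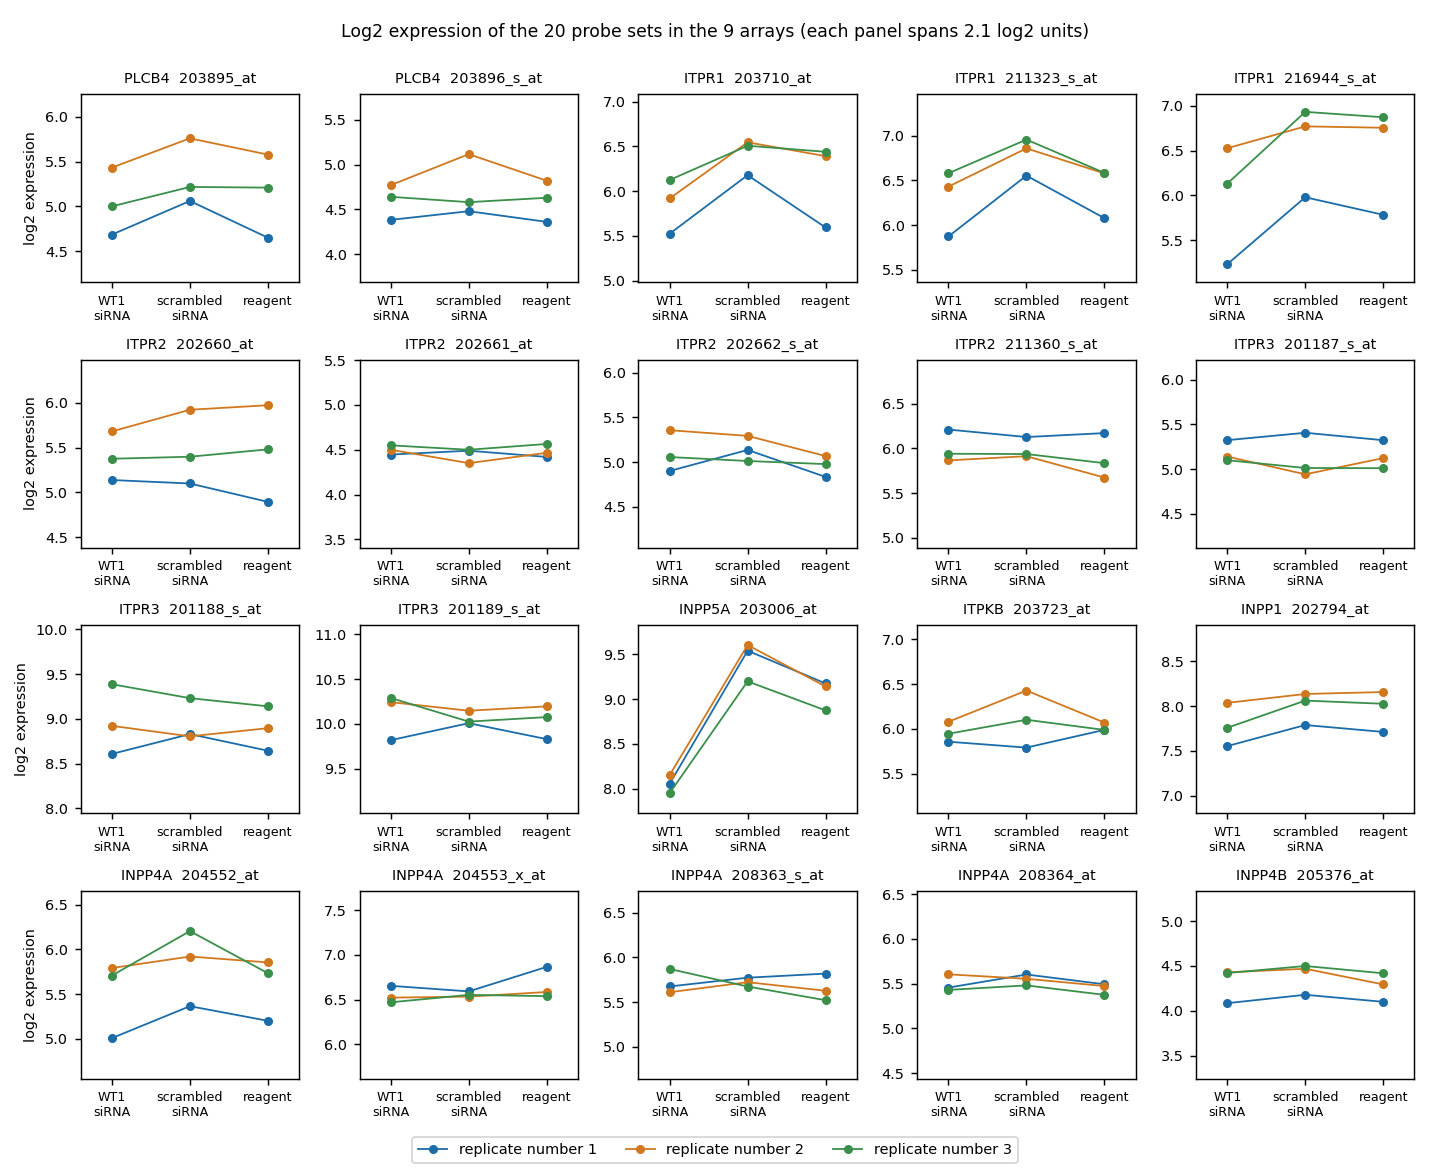
Log2 expression (vertical axis) of the 20 probe sets in the WT1 siRNA, scrambled siRNA and reagent groups (horizontal axis), with 1 line per replicate number. INPP5A drops with the WT1 siRNA in all 3 numbers, while for most other probe sets the lines lie apart by replicate number and run nearly level.

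INPP5A is the enzyme that removes a phosphate from soluble IP3, so that it no longer opens the calcium channels. Its probe set, 203006_at, is the only one for this gene on the array, so no other probe set can check it. It read 8.05, 8.15 and 7.95 with the WT1 siRNA, 9.54, 9.60 and 9.20 with the scrambled siRNA, and 9.18, 9.14 and 8.87 with reagent. Each group lay apart from the others, with every WT1 siRNA array below every array of the reagent group and every scrambled array above both. The groups averaged 8.05 ± 0.100, 9.45 ± 0.218 and 9.06 ± 0.165 (SD, n = 3 each), and its rank on each array was between the percentiles 69.7 and 88.5.

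INPP5A fell 2.63-fold against the scrambled siRNA (−1.40, SE 0.0663, adjusted p = 5.4e-05) and 2.02-fold against reagent (−1.01, adjusted p = 0.000619). Within replicate numbers 1, 2 and 3 the differences were −1.49, −1.45 and −1.25 against the scrambled siRNA and −1.12, −0.99 and −0.92 against reagent. The fall was thus close to the same size in each number. By p-value it ranked first of the 22215 probe sets against the scrambled siRNA, and 2 probe sets fell further. The scrambled siRNA itself raised INPP5A 1.31-fold over reagent (0.38, adjusted p = 0.0299), with differences of 0.37, 0.46 and 0.32, so the comparison with reagent gives the smaller fall.

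The calls on INPP5A were not equally firm. Against the scrambled siRNA it passed under 18 of 18 alternative settings, with changes between −1.47 and −1.35. Against reagent it passed under 16 of 18 and was not called without the block (adjusted p = 0.387) or without the arrays of replicate number 2 (adjusted p = 0.0982), where the change was −1.02. In this comparison both of those fits called 0 of all 22215 probe sets. The rise with the scrambled siRNA over reagent passed under 7 of 18. It was lost without the block (adjusted p = 1.0), and leaving out arrays gave adjusted p-values of 0.0163 to 0.482.

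**Figure D2:**
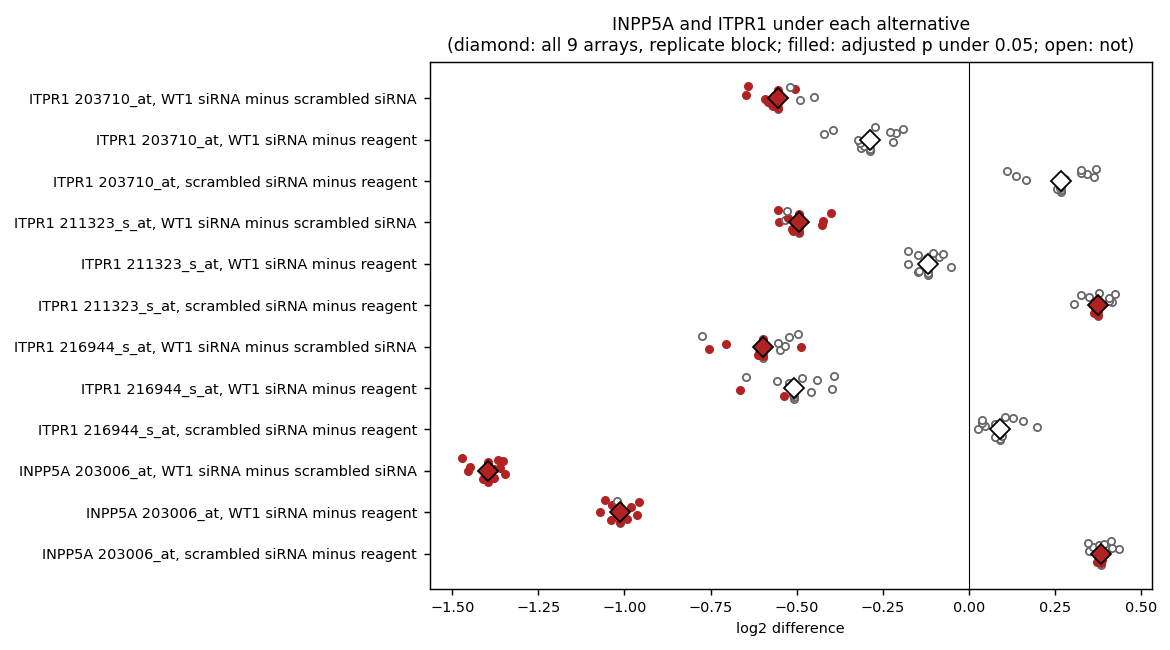
Log2 difference (horizontal axis) of INPP5A and of the 3 ITPR1 probe sets in each comparison (rows) under every alternative setting, with filled points for an adjusted p under 0.05. INPP5A stays between −1.47 and −1.35 against the scrambled siRNA with every point filled. Its other rows, and those of ITPR1 against the scrambled siRNA, mix filled and open points.

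Upstream of IP3, PLCB4 is a beta phospholipase C that Gq proteins switch on. At probe set 203895_at it read 4.68, 5.43 and 5.00 with the WT1 siRNA, 5.06, 5.76 and 5.22 with the scrambled siRNA, and 4.65, 5.58 and 5.21 with reagent. The groups overlapped, and the arrays of number 1 were lowest in every group. The difference of −0.31 from the scrambled siRNA missed the threshold (SE 0.0767, adjusted p = 0.0677), and that from reagent was −0.11 (adjusted p = 0.563). Without reagent replicate 1 the first of these passed (adjusted p = 0.0452). The other probe set, 203896_s_at, had −0.13 and −0.01. Both were dim, between percentiles 10.1 and 38.9 of their arrays.

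The IP3 receptors differ in sensitivity to IP3 and in tissue, and ITPR1 is the type known for its abundance in the brain. ITPR1 at probe set 203710_at read 5.52, 5.92 and 6.13 with the WT1 siRNA, 6.18, 6.55 and 6.51 with the scrambled siRNA, and 5.59, 6.39 and 6.44 with reagent. The WT1 siRNA arrays lay below all scrambled arrays and overlapped the reagent arrays. At 211323_s_at it read 5.87, 6.43 and 6.58 with the WT1 siRNA, 6.55, 6.86 and 6.96 with the scrambled siRNA, and 6.08, 6.58 and 6.58 with reagent. At 216944_s_at it read 5.23, 6.53 and 6.13, with the WT1 siRNA, 5.98, 6.77 and 6.93 with the scrambled siRNA, and 5.78, 6.76 and 6.87 with reagent. In these last probe sets the groups overlapped, because the arrays of replicate number 1 were low throughout, but the WT1 siRNA array was below the scrambled array of its own number in 3 of 3 cases.

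Against the scrambled siRNA the ITPR1 probe sets fell by 0.55 (SE 0.0975, adjusted p = 0.0196), 0.49 (SE 0.0713, adjusted p = 0.00829) and 0.60 (adjusted p = 0.0192). They measure the same gene on the same arrays and are not replicates of each other. Against reagent the differences were −0.29 (adjusted p = 0.204), −0.12 (adjusted p = 0.482) and −0.51 (adjusted p = 0.0549), below 0 in 3 of 3 numbers for each probe set. The probe set 216944_s_at passed when each array was centred on its median (adjusted p = 0.049), with a trended variance prior (adjusted p = 0.0291) and without WT1 siRNA replicate 2 (adjusted p = 0.0356). Between the scrambled siRNA and reagent 1 of the 3 probe sets, 211323_s_at, was higher (0.38, adjusted p = 0.0444), and the others had 0.27 and 0.09. Without the block every ITPR1 call was lost (adjusted p = 1.0 for each).

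Leaving out arrays also moved the ITPR1 calls against the scrambled siRNA. Of 12 such fits for each probe set, 203710_at passed in 8, 211323_s_at in 10 and 216944_s_at in 6, with changes of −0.65 to −0.45, −0.55 to −0.40 and −0.77 to −0.49. Without the arrays of replicate number 2 all 3 were lost (adjusted p = 0.23, 0.146 and 0.0596), in a fit that called 2 of all probe sets. ITPR1 at 203710_at was also lost without WT1 siRNA replicate 2 (adjusted p = 0.102), scrambled siRNA replicate 1 (0.0901) or scrambled siRNA replicate 2 (0.109). At 211323_s_at it was also lost without scrambled siRNA replicate 2 (adjusted p = 0.0537). At 216944_s_at it was also lost without WT1 siRNA replicate 1 (adjusted p = 0.0552), scrambled siRNA replicate 1 (0.097), scrambled siRNA replicate 3 (0.0889), and replicate numbers 1 and 3 (0.102 and 0.0871). The direction was down in each of these fits.

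The stretch of 250 bases before the annotated start of ITPR1 is shown because ITPR1 was the called member with an entry in RefSeq's promoter table and WT1 is a DNA-binding factor. It lies at chr3:4493098-4493347 on the plus strand of GRCh38.p14, and capitals mark a TATATAA match that begins 30 bases before the start.
ITPR1: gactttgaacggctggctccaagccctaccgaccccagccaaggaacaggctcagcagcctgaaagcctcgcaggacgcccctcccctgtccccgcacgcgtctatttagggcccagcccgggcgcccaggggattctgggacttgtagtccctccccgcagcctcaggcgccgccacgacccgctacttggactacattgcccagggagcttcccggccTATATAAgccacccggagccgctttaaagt
The zinc finger motif GCGNGGGCG, of the kind WT1 and EGR1 bind, had 0 matches on either strand of this window. Entries matched 6 of the 9 genes (not PLCB4, ITPR2 and INPP5A), with 12 windows of the same length, and it occurred in 0 of them, while TATATAA, read the same way, occurred in 1. Over all 35116 windows in the table GCGNGGGCG occurred in 8.41% and TATATAA in 2.42%. No match says only that these letters are not in these windows.

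ITPR2 and ITPR3, the other receptor types, showed no call. ITPR3 at probe set 201189_s_at read 9.82, 10.24 and 10.29 with the WT1 siRNA, 10.01, 10.15 and 10.03 with the scrambled siRNA, and 9.83, 10.20 and 10.08 with reagent. The groups overlapped throughout. The difference was 0.06 from the scrambled siRNA, with a 95% interval of −0.13 to 0.24, and 0.08 from reagent, with an interval of −0.10 to 0.27. At 201188_s_at it had 0.02 and 0.08, and at 201187_s_at, at percentiles 23.1 to 31.2 of its arrays, 0.07 and 0.04.

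The 4 ITPR2 probe sets differed from the scrambled siRNA by −0.08 to 0.05 and from reagent by −0.05 to 0.14, with the lowest adjusted p at 0.415. Their intervals against the scrambled siRNA ran from −0.28 at the lowest to 0.19 at the highest. Differences of the size seen for ITPR1 against the scrambled siRNA lay outside the intervals of all 7 probe sets of ITPR2 and ITPR3. ITPR2 was dim, between percentiles 10.7 and 45.6 of its arrays. The ITPR1 probe sets lay between percentiles 27.9 and 56.6, a range that overlaps that of ITPR2. Whether ITPR1 changed by a different amount from the other receptor types was not tested.

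**Figure D3:**
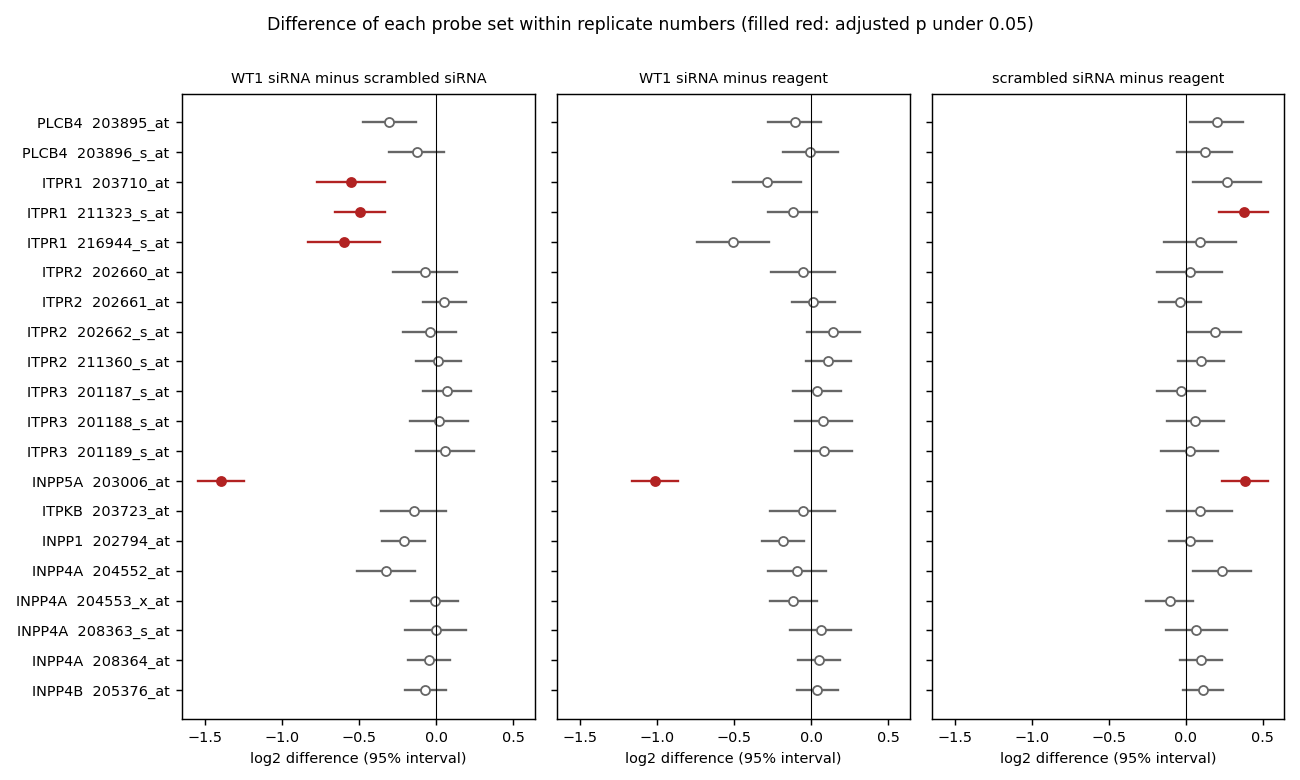
Log2 difference with its 95% interval (horizontal axes) for the 20 probe sets (rows) in the 3 comparisons, with filled red points for an adjusted p under 0.05. INPP5A stands furthest to the left in the first and middle panels, the 3 ITPR1 probe sets follow in the first, and the intervals of ITPR2 and ITPR3 against the scrambled siRNA cross 0.

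Beside INPP5A, the enzyme that takes IP3 out of the calcium signal is the IP3 3-kinase, here ITPKB, which adds a phosphate. ITPKB read 5.86, 6.08 and 5.95 with the WT1 siRNA, 5.79, 6.43 and 6.10 with the scrambled siRNA, and 5.99, 6.07 and 5.99 with reagent. The groups overlapped and no difference passed (−0.15, adjusted p = 0.506, against the scrambled siRNA and −0.06, adjusted p = 0.84, against reagent). The interval of the first was −0.36 to 0.06.

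Further down the path INPP1, which removes a phosphate from the products of IP3, read 7.55, 8.04 and 7.76 with the WT1 siRNA, 7.79, 8.14 and 8.06 with the scrambled siRNA, and 7.71, 8.16 and 8.03 with reagent. The groups overlapped, yet the WT1 siRNA array was the lowest of its replicate number in 3 of 3 numbers. The differences of −0.21 and −0.18 did not pass (SE 0.0617, adjusted p = 0.108 and 0.202), and their intervals, −0.35 to −0.07 and −0.32 to −0.04, excluded 0 before adjustment. The scrambled siRNA differed from reagent by 0.03 (adjusted p = 0.92).

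INPP4A and INPP4B remove a phosphate from a lipid product of phosphoinositide 3-kinase, and INPP4B is known as a tumour suppressor in epithelial cancers. Of the 4 INPP4A probe sets, 204552_at read 5.01, 5.79 and 5.71 with the WT1 siRNA, 5.37, 5.92 and 6.20 with the scrambled siRNA, and 5.20, 5.86 and 5.73 with reagent. Its difference of −0.33 from the scrambled siRNA was below 0 in 3 of 3 numbers but missed the threshold (SE 0.0835, adjusted p = 0.071), and it was −0.09 from reagent. The other 3 had differences no further from 0 than −0.05 from the scrambled siRNA and −0.11 to 0.06 from reagent, so the probe sets of this gene did not move alike. INPP4B, between percentiles 5.66 and 14.2 of its arrays, read 4.08, 4.43 and 4.42 with the WT1 siRNA, 4.18, 4.47 and 4.50 with the scrambled siRNA, and 4.10, 4.29 and 4.42 with reagent. Its differences of −0.07 and 0.04 are those of a probe set near the bottom of the range.

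Over the 20 probe sets, the 3 arrays of each group did not overlap for 2 between the WT1 and scrambled siRNAs (INPP5A and ITPR1 at 203710_at), where the share of all probe sets was 6.67%. Between the WT1 siRNA and reagent this held for 1 (5.50% of all), and between the scrambled siRNA and reagent for 1 (5.26% of all), INPP5A in each case.

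Apart from INPP5A, the members differed more between replicate numbers than between treatments. For 19 of the 20 probe sets the sum of squares between the 3 numbers exceeded that between the 3 groups. The median share was 71.9% between numbers and 12.6% between groups, against 59.1% and 13.4% over all probe sets. For INPP5A the order was the other way, with 94.8% between groups and 4.52% between numbers. For ITPR1 the groups held 39.1%, 42.8% and 22.7%, and for ITPR2 at 202660_at 0.817% against 91.8% between numbers.

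The mean of number 1 was the lowest of the 3 for 13 of the 20 probe sets. ITPR1 at 216944_s_at averaged 5.67 over the 3 arrays of number 1, 6.69 over number 2 and 6.65 over number 3. INPP4A at 204552_at averaged 5.19, 5.86 and 5.88, and PLCB4 at 203895_at 4.80, 5.59 and 5.14. ITPR3 at 201187_s_at and ITPR2 at 211360_s_at ran the other way, with number 1 highest at 5.35 and 6.17. A sign of RNA integrity moved with the number too: the 3′ minus 5′ difference of the ACTB control probe sets was 0.0507 to 0.0887 in number 1, 0.554 to 0.677 in number 2 and 0.260 to 0.505 in number 3. By group it was 0.0773 to 0.554 with the WT1 siRNA, 0.0507 to 0.677 with the scrambled siRNA and 0.0887 to 0.617 with reagent. Its part in the members' levels was not tested.

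**Figure D4:**
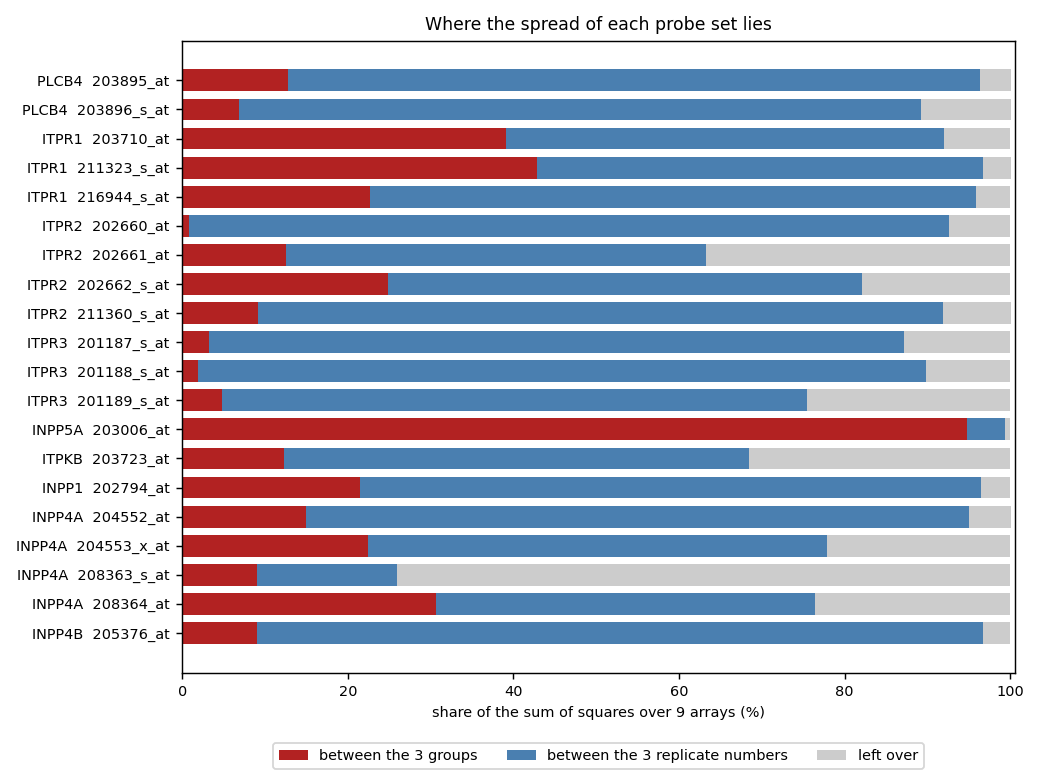
Share of the sum of squares over the 9 arrays (horizontal axis, percent) between the 3 groups, between the 3 replicate numbers and left over, for each of the 20 probe sets (rows). The group share fills 94.8% of the INPP5A bar, and the number share is larger than it in the other 19.

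Markers of cell types were set beside these changes. The mean log2 level of the 8 glioma and astrocyte markers was 8.71 to 9.49 with the WT1 siRNA, 8.74 to 9.43 with the scrambled siRNA and 8.96 to 9.63 with reagent. Against the scrambled siRNA 2 of their 20 probe sets rose (SOX2 and CD44) and 1 fell (SLC1A3), or 15.0% beside 3.27% of all probe sets. The median of the 20 was 0.22 in that comparison and 0.09 against reagent. Between the scrambled siRNA and reagent it was −0.14, with 1 call (SLC1A3, higher). Of the 6 epithelial probe sets 1 fell (KRT18), and of the 11 of microglia and macrophages and the 8 of endothelium limma called 0 in any comparison. The microglial markers averaged 5.48 to 5.54, 5.40 to 5.57 and 5.37 to 5.52 in the 3 groups, the endothelial ones 5.67 to 5.86, 5.69 to 5.82 and 5.68 to 5.78, and the epithelial ones 6.00 to 6.34, 6.18 to 6.37 and 6.20 to 6.24. Their part in the members' changes was not tested.

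The rest of the pathway was read from 10 lists of other genes, written from textbook knowledge of IP3 and calcium signalling. The lists too were chosen with earlier results of these data known. Their counts and shares therefore describe these arrays and are not independent support for anything. They named 144 genes, of which 121 had 239 probe sets. Against the scrambled siRNA 20 probe sets were called, 6 higher and 14 lower, or 8.37% (2.51% higher and 5.86% lower) beside 3.27% of all probe sets. The median difference was 0.00, as over all probe sets. Against reagent 3 were called (1 higher and 2 lower, 1.26%), and between the scrambled siRNA and reagent 3 (2 higher and 1 lower, 1.26%). Without the replicate block 0 passed in any comparison. In the first comparison the count was 0, 6 and 9 without replicate numbers 2, 1 and 3, where the calls over all probe sets were 2, 383 and 374, against 726 with all arrays. Leaving out single arrays gave 14, 6 and 10 for WT1 siRNA replicates 1, 2 and 3. For scrambled siRNA replicates 1, 2 and 3 the counts were 4, 2 and 10. For reagent replicates 1, 2 and 3 they were 20, 9 and 17. Over all probe sets, these single-array fits had 88 to 706 calls.

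Of the 20 calls against the scrambled siRNA, 8 lay in the list of calcium stores and entry. There 8 of 52 probe sets (15.4%), of 4 genes, fell and 0 rose, where 1.94% of all probe sets were called lower, and the median of the list was −0.03. ATP2C1, the calcium and manganese pump of the Golgi, fell at all 4 of its probe sets. At 209935_at it read 6.24, 6.91 and 6.77 with the WT1 siRNA, 6.77, 7.57 and 7.36 with the scrambled siRNA, and 6.72, 7.28 and 7.18 with reagent, so that the WT1 siRNA array was the lowest of its number each time. This was a fall of 0.59 against the scrambled siRNA (SE 0.0627, adjusted p = 0.00282) and of 0.42 against reagent (adjusted p = 0.0186). The other probe sets fell by 0.28 to 0.54 against the scrambled siRNA, and 1 of them also fell against reagent (−0.33, adjusted p = 0.0337).

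ATP2B1, a calcium pump of the plasma membrane, fell at 2 of 3 probe sets. At 212930_at it read 6.55, 8.16 and 7.01 with the WT1 siRNA, 7.57, 8.70 and 7.91 with the scrambled siRNA, and 6.96, 8.27 and 7.72 with reagent. The difference was −0.82 from the scrambled siRNA (SE 0.111, adjusted p = 0.00679) and −0.41 from reagent (adjusted p = 0.12). At 215716_s_at the differences were −0.59 (adjusted p = 0.00944) and −0.43 (adjusted p = 0.0566). ATP2A2, the pump that fills the endoplasmic reticulum and thus the store that IP3 receptors empty, fell at 1 of 3 probe sets against the scrambled siRNA (−0.34, adjusted p = 0.0442). In the same comparison ORAI2, a channel of store-operated entry, fell at 1 of 3 (−0.33, adjusted p = 0.0474). Neither gene was called between the WT1 siRNA and reagent.

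In the list of inositol phosphatases and inositol supply 4 of 14 probe sets, of 2 of the 9 measured genes, rose against the scrambled siRNA and 0 fell (28.6% higher, beside 1.33% of all probe sets), and the median of the list was 0.08. The other 7 genes, among them IMPA1, ISYNA1, MINPP1 and BPNT1, had no call. SLC5A3, the sodium-coupled transporter that brings inositol into the cell, rose at all 3 probe sets, by 0.43 to 0.57 (adjusted p = 0.00815 to 0.0133). At 213164_at it read 10.01, 10.16 and 10.32 with the WT1 siRNA, 9.65, 9.62 and 9.92 with the scrambled siRNA, and 9.93, 9.88 and 10.12 with reagent. In each number the reagent array lay between, and none of the 3 probe sets passed between the WT1 siRNA and reagent (0.17 to 0.22). IMPA2, an inositol monophosphatase that yields free inositol, rose by 0.72 (SE 0.128, adjusted p = 0.0212), with 8.12, 7.16 and 7.69 with the WT1 siRNA, 7.05, 6.87 and 6.90 with the scrambled siRNA and 7.75, 7.53 and 7.60 with reagent. With the scrambled siRNA it was below reagent (−0.69, adjusted p = 0.0408) and differed by 0.03 between the WT1 siRNA and reagent.

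**Figure D5:**
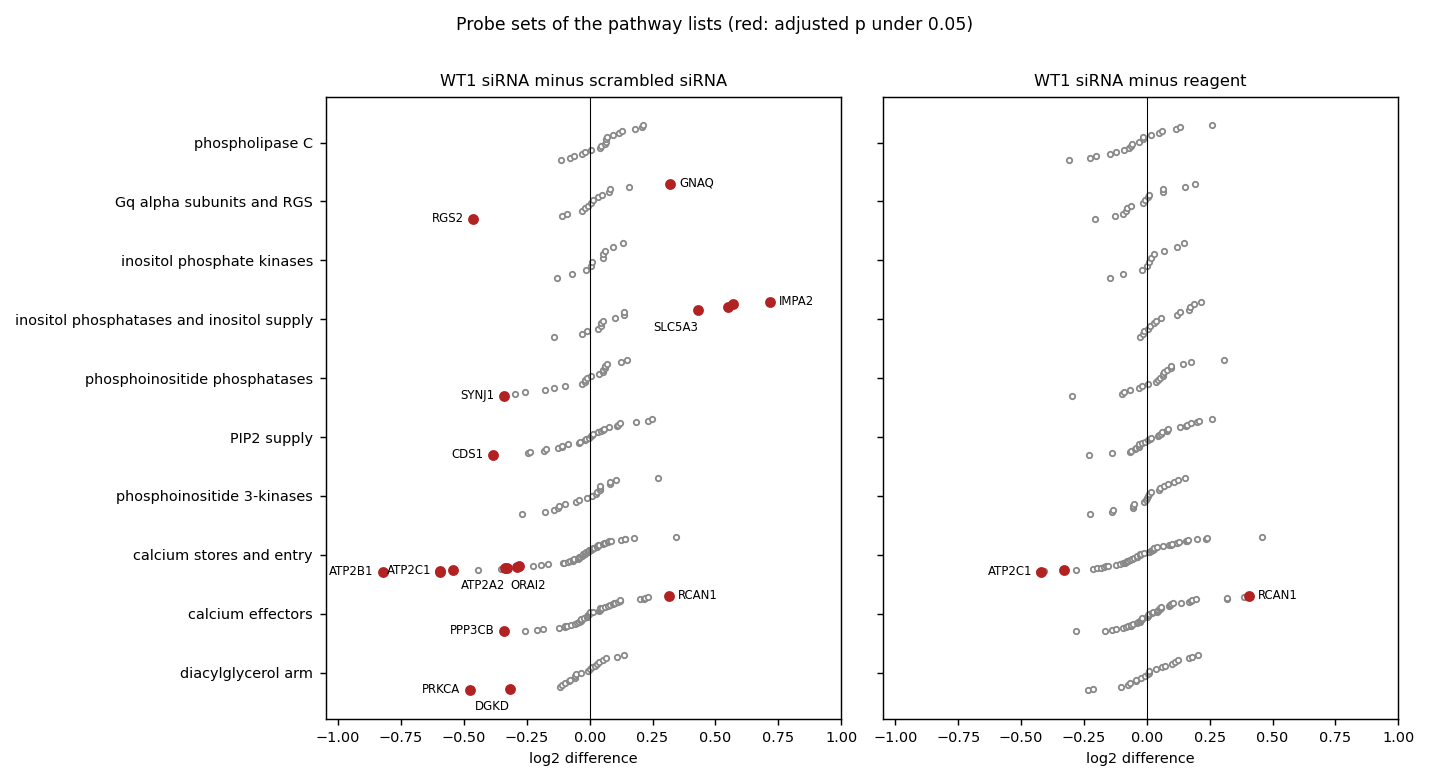
Log2 difference (horizontal axes) of each probe set of the 10 pathway lists (rows) for the WT1 siRNA against the scrambled siRNA and against reagent, with called probe sets in red and their genes named. Calcium pumps lie at the left of the first panel and SLC5A3 and IMPA2 at its right, and only ATP2C1 and RCAN1 are red in the other.

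Changes in this paragraph are those against the scrambled siRNA unless reagent is named, and no gene in it was called between the WT1 siRNA and reagent. Nearer to the receptor, GNAQ, the Gq alpha subunit, rose at 1 of 2 probe sets (0.32, adjusted p = 0.0315). RGS2, which shortens Gq signals, fell (−0.47, adjusted p = 0.0264). In the diacylglycerol arm PRKCA, a protein kinase C that calcium and diacylglycerol switch on, fell at 1 of 4 probe sets (−0.48, adjusted p = 0.00629). With the scrambled siRNA this probe set exceeded reagent (0.41, adjusted p = 0.0187), and with the WT1 siRNA it differed from reagent by −0.07. DGKD, a diacylglycerol kinase, fell (−0.32, adjusted p = 0.0386). CDS1, which makes an activated lipid on the way to PIP2, fell at 1 of 2 (−0.38, adjusted p = 0.0244), with a rise from the scrambled siRNA over reagent (0.40, adjusted p = 0.0355), and SYNJ1, a phosphatase of PIP2, fell at 1 of 2 (−0.34, adjusted p = 0.0367).

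Among the calcium effectors PPP3CB, a catalytic subunit of calcineurin, fell at 1 of 2 probe sets against the scrambled siRNA (−0.34, adjusted p = 0.0263) and had no call against reagent. RCAN1, an inhibitor of calcineurin, rose at 1 of 3 against the scrambled siRNA (0.32, adjusted p = 0.0292) and against reagent (0.41, adjusted p = 0.0206). The lists of phospholipase C, inositol phosphate kinases and phosphoinositide 3-kinases had 0 calls by limma in any comparison, over 18, 10 and 19 probe sets. The smallest p-values there belonged to PLCE1 (−0.35 for the scrambled siRNA against reagent, adjusted p = 0.104), PPIP5K1 (−0.15 in that comparison, adjusted p = 0.409) and PIK3R1 (0.27 for the WT1 against the scrambled siRNA, adjusted p = 0.0727).

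Genes whose profile ran closest to INPP5A were sought among 6797 genes with a probe set at or above the median level, after the mean of each replicate number was subtracted. The 5 highest Pearson correlations over the 9 arrays, which share their replicate numbers and normalisation, were those of TLCD3A (0.991), RNF11 (0.990), AZIN1 (0.990), SSBP1 (0.989) and EPAS1 (0.988). Without that subtraction their correlations were 0.922, 0.961, 0.768, 0.315 and 0.659 in this order, so the likeness of SSBP1, EPAS1 and AZIN1 rests on it more than that of TLCD3A and RNF11. SSBP1 itself was called in none of the 3 comparisons (−0.16 against the scrambled siRNA, adjusted p = 0.176). EPAS1, the hypoxia-inducible factor HIF-2 alpha, read 6.88, 7.95 and 6.81 with the WT1 siRNA, 7.74, 8.83 and 7.72 with the scrambled siRNA, and 7.39, 8.61 and 7.47 with reagent. RNF11 read 9.85, 9.97 and 9.95 with the WT1 siRNA, 10.49, 10.73 and 10.49 with the scrambled siRNA, and 10.41, 10.55 and 10.43 with reagent. They share with INPP5A the lowest level with the WT1 siRNA and the highest with the scrambled siRNA in each number. Because both were picked for a high correlation with INPP5A, this shared order is not a separate result. Among the members, the same correlation with INPP5A was 0.83 to 0.90 for the ITPR1 probe sets, 0.90 for INPP1, 0.80 and 0.50 for PLCB4 and 0.74 for INPP4A at 204552_at. It was 0.50 for ITPKB and 0.36 for INPP4B, at most 0.235 for the other 3 INPP4A probe sets, −0.453 to 0.29 for ITPR2 and −0.437 to −0.141 for ITPR3. Without the subtraction the highest of these values were smaller, 0.391 to 0.519 for ITPR1, 0.437 for INPP1, 0.357 and 0.248 for PLCB4 and 0.245 for INPP4A at 204552_at. SSBP1 and INPP1 had high values without a call. The share of all probe sets with such values is not given here, so they do not set the members apart.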

How the data were processed

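Per the submitters' processing notes, the deposited values come from RMA (robust multi-array average), a method that subtracts background, equalises the arrays and summarises probes on a log2 scale. Which software and chip definition the authors used was not stated in the labels. The log2 values were used as deposited, from 22277 probe sets without missing values, and 62 control probe sets were left out of the tests. Symbols came from the platform annotation, where 19064 probe sets had 1 symbol, 1043 several and 2108 none. No build is named for the probes, so no probe coordinates are given. Pathway genes were matched by gene ID, without probe sets of several genes.

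All 9 arrays entered 1 linear model in limma 3.58.1 (R 4.3.3, with eBayes), with 1 mean per group and the replicate number as a fixed block, so that groups were compared within numbers. P-values are two-sided, after Benjamini and Hochberg over 22215 probe sets. Deviations from group means correlated at 0.647 to 0.849 for the 9 pairs of arrays with the same number, so the numbers pair the arrays. Other pairs had −0.611 to −0.0311, values lowered by construction because the deviations within a group sum to 0. Alternatives were no block, the compared groups alone, median centring, quantile normalisation, the brighter probe sets alone, a trended prior, and leaving out each array or number. In data simulated with the spread of these arrays, the fit recovered 68% of changes of 0.5 and 100% of changes of 1 for the WT1 against the scrambled siRNA, over 22215 probe sets. It also called 12 unchanged probe sets. Each size of change was given to 100 probe sets, in the WT1 siRNA group alone. The simulation took the model of the fit, with its number effects and normal noise, as true, so recovery in the real arrays may differ. The number of arrays limits the precision. The members, the lists, the block and the tests were chosen with earlier results of these data known. Named were all members, WT1, each pathway gene with a call (or the smallest p of a list without one) and the 5 genes most like INPP5A. Promoters were read from RefSeq's table (GRCh38.p14). Figures were drawn with matplotlib 3.10.9.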

Additional observations from a re-analysis of the deposited data

How the results depend on the processing

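Of 1038 values for single member probe sets under alternatives, 939 kept direction and call, 39 lost a call, 4 gained one, 56 that passed in neither fit turned sign, and 0 called values turned sign. The counts called among the 20 member probe sets (WT1 against scrambled siRNA, WT1 siRNA against reagent, scrambled siRNA against reagent) were 4, 1 and 2. Without the replicate block they were 1, 0 and 0. The first was 2 with the brighter probe sets alone, where 953 of 11108 were called. This setting keeps 6 of the 20 and leaves out ITPR1 at 203710_at and 216944_s_at. The second count was 2 with median centring and with a trended prior, where 337 and 552 of all probe sets were called. The cause was not tested for the other settings. Leaving out arrays or numbers gave 1 to 5, 0 to 2 and 0 to 2. Over all probe sets these fits called 2 to 706, 0 to 465 and 3 to 387. Of the pathway probe sets 20, 3 and 3 were called, and without the replicate block 0, 0 and 0. With the compared groups fitted alone, on fewer arrays, they were 10, 0 and 7 (390, 3 and 535 over all probe sets), and with a trended prior the last counts were 5 and 6 (552 and 470 over all). With all arrays 726, 277 and 242 of all probe sets were called. For the pathway probe sets, leaving out arrays or numbers gave 0 to 20, 0 to 3 and 0 to 5. Dim probe sets, as those of INPP4B, ITPR2 and PLCB4, limit what can be seen.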
